A study of Mus musculus with 12 samples.

Results

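The transcripts of the Max network, namely the Myc genes, their partner Max and their antagonists, were followed in granule cell progenitors of the mouse cerebellum with and without a constitutively active hedgehog pathway. The network was taken as 9 genes: Mycn, Myc, Mycl, Max, Mxd1, Mxd3, Mxd4, Mxi1 and Mnt. They were chosen by name, and every probe set that the platform annotation assigns to exactly that symbol was used, which gave 22 probe sets out of 45037. The brightest probe set of each gene, by its mean level on the 12 arrays, served as the main measurement, so the network made up 9 of the 18193 genes tested.

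Cells were isolated on a Percoll gradient from the cerebellar hemispheres or the vermis of mice of mixed C57BL/6 and Swiss Webster background at postnatal day 8, and 5 mice were pooled for each replicate. Wild type cells were compared with SmoM2 cells, which carried Atoh1-CreER/+ and R26LSL-SmoM2-YFP and were given 200 µg of tamoxifen per g at postnatal day 2. SmoM2 is an activated form of Smoothened, the transducer of the hedgehog signal. Atoh1 is active in granule cell progenitors, so the tamoxifen-dependent Cre acts in these cells, and the gradient fraction was not sorted for recombined cells per the protocols used here. Each genotype was measured in each region on 3 arrays, which makes 4 groups, and the labels do not say whether the wild type mice were also given tamoxifen.

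Myc family proteins are basic helix-loop-helix leucine zipper transcription factors that bind DNA, chiefly the E-box CACGTG, as dimers with Max, and drive genes of growth, ribosome production, metabolism and the cell cycle. Mxd proteins, Mxi1 and Mnt compete for Max and recruit corepressors to the same sites. In granule cell progenitors Mycn is the family member best known as a hedgehog target and a driver of proliferation, and the Myc genes are recurrently altered in medulloblastoma, the cerebellar tumour that can arise from these cells.

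Promoters of 3 network genes are shown because they differ in the binding motifs the network and its upstream factors use: Mycn, the classical hedgehog target, and Mnt and Max, whose promoters hold an E-box. The sequences are from RefSeq (GRCm38.p6), run 5′ to 3′ on the strand of the gene and cover 250 bases before to 20 bases after the annotated start. Capitals mark E2F-type motifs (TTTGGCGC or TTTCGCGC, either strand, which can overlap each other) in Mycn and the E-box CACGTG in Mnt and Max.
Mycn, chr12:12941817-12942086, minus strand: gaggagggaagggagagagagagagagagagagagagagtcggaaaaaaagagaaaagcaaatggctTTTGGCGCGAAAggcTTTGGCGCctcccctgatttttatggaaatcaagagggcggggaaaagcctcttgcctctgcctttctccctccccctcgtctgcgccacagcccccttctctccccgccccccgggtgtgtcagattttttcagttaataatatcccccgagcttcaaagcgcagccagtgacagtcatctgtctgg
Mnt, chr11:74830674-74830943, plus strand: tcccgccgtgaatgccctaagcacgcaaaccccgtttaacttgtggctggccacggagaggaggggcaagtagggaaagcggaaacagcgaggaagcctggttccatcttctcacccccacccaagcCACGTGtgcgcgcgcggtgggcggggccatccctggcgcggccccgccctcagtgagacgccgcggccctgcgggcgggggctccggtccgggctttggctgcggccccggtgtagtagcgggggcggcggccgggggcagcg
Max, chr12:76962229-76962498, minus strand: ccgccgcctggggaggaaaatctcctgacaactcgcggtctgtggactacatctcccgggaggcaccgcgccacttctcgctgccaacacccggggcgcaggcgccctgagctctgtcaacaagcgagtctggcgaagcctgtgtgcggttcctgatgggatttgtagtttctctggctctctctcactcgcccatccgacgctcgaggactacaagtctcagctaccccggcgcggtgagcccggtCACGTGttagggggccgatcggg

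Promoters of 8 of the 9 network genes were matched, Myc not among them, and motifs were searched in 300 bases, from 250 before to 50 after the start. Mycn held 3 E2F-type matches, at -183, -179 and -168 relative to the start, and the other 7 matched genes held none. Such a match occurred in 0.813% of the 32851 promoters searched, which did not cover every chromosome. The E-box was found in 3 of the 8, at -123 in Mnt, at -3 in Max and at -219 in Mxd4. It was found in 10.2% of the 14452 tested genes with a searched promoter, and in 7.15% of all promoters searched. The Gli consensus TGGGTGGTC (either strand) was in none of the 8 and in 0.253% of all promoters searched. These matches describe letters in short windows and do not show binding.

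Expression values were log2 values per probe set, with medians between 4.81 and 4.87 on the 12 arrays. Arrays of the same group correlated at 0.989 to 0.997, and the median standard deviation (SD) within a group of 3 was 0.13. A labelling control, dap, ranged from 7.92 to 11.11. It read 9.63, 8.96 and 7.92 in the wild type hemisphere, below every array of the other groups, whose lowest was 9.90. The wild type hemisphere is the reference of every SmoM2 difference in the hemisphere, and the part of this technical difference in the results was not tested. A gene was called when its Benjamini-Hochberg adjusted p in limma was under 0.05 over all 18193 genes. By that rule 14.8% of all genes differed between SmoM2 and wild type in the hemisphere, 17% in the vermis and 35.5% when the difference was averaged over both regions. Hemisphere and vermis arrays with the same number varied together in wild type, and only weakly in SmoM2. The labels do not say whether such arrays came from the same pool of mice. A numbered pool below means the hemisphere and vermis arrays of that number within a genotype. In an added fit such arrays were treated as coming from the same pool, and 23.7% of genes differed on average. The adjusted p from that fit is given for the averaged results of Myc, Mycn, Mnt and Mxd4 as the pool-blocked adjusted p. No other member was called on average in that fit. Single genes of the lists carry the adjusted p of the fit without the block.

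In SmoM2 cells 3 members of the network rose, Myc, Mycn and Mnt, and none fell. Myc rose about 3-fold in both regions, Mycn rose by 1.33-fold when both regions were averaged, and Mnt rose in the hemisphere and in the average. Over the alternative fits 1 to 3 members were called higher and 0 to 1 lower on average, and when each gene's probe sets were averaged Myc alone of these 3 kept its call. In the hemisphere 2 of 9 members were called higher (7.62% of all genes were), in the vermis 1 of 9 (7.56% of all genes) and in the average 3 of 9 (15.4% of all genes, 11.5% with the pool block). Median differences over the 9 members were 0.17, 0.11 and 0.14 on the log2 scale, where the medians over all genes were -0.05, -0.06 and -0.06. Because these are bulk samples, a change in the share of cells that express a gene and a change in RNA per cell cannot be told apart.

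**Figure D1:**
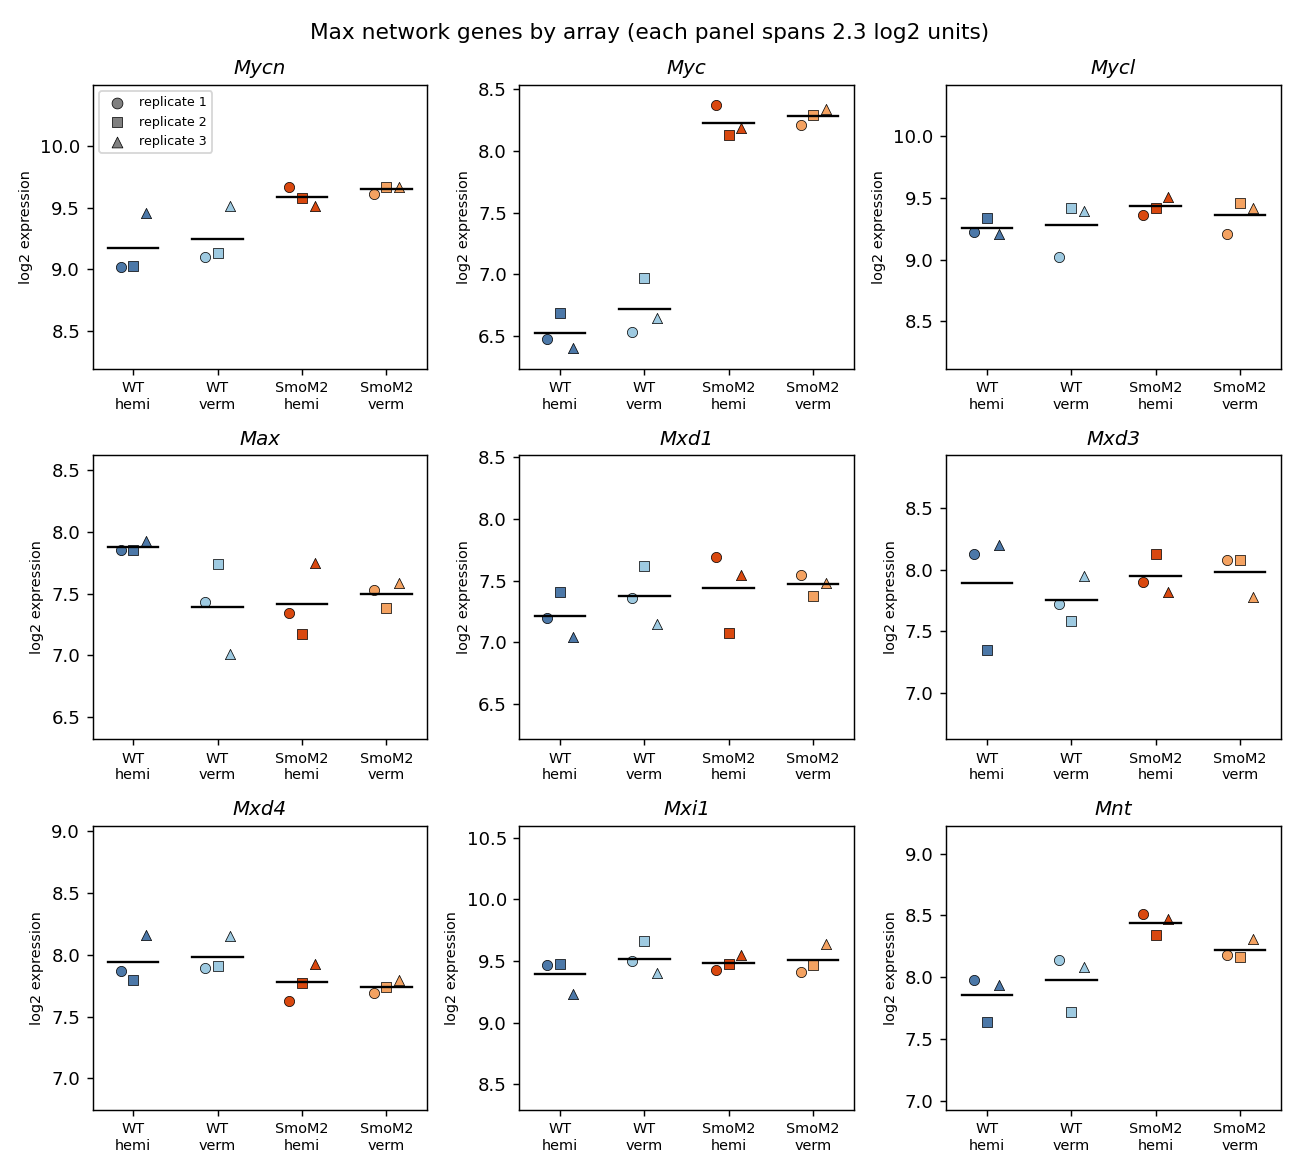
Log2 expression of the main probe set of each of the 9 Max network genes on every array; circles, squares and triangles are replicates 1, 2 and 3, bars are means of 3 arrays, and all panels span the same number of log2 units on axes that do not start at 0. Myc lies between 6.40 and 6.97 in wild type and between 8.13 and 8.37 in SmoM2, while Mxi1 and Mxd1 overlap between genotypes.

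Myc, the founding member of the family, showed the widest separation in the network. In the wild type hemisphere its log2 levels were 6.48, 6.69 and 6.40, and in the SmoM2 hemisphere 8.37, 8.13 and 8.19. In the vermis they were 6.53, 6.97 and 6.65 in wild type and 8.21, 8.29 and 8.34 in SmoM2. Every SmoM2 array of Myc was thus above every wild type array, as in 8.11% of all genes. The gap between the genotypes was wider than the spread within any group. From low to high, the group means were 6.52 ± 0.15 (SD, n = 3) for hemisphere and 6.72 ± 0.23 for vermis in wild type, then 8.23 ± 0.13 for hemisphere and 8.28 ± 0.07 for vermis in SmoM2, and the differences between regions within a genotype (-0.19 in wild type, -0.05 in SmoM2) did not pass. The SmoM2 difference in Myc was 1.71 ± 0.12 (SE) log2 in the hemisphere, a 3.26-fold rise (adjusted p = 6.05e-07, limma). In the vermis Myc differed by 1.56 ± 0.12, or 2.96-fold (adjusted p = 1.27e-06). Averaged over both regions the difference was 1.64 ± 0.09 (95% interval 1.45 to 1.82, adjusted p = 8.96e-09, pool-blocked adjusted p = 4.83e-08). A difference at least as large in either direction was seen in 0.61% of all genes for the average. The SmoM2 difference of Myc in the hemisphere exceeded that in the vermis by 0.14, an amount that did not pass (95% interval -0.24 to 0.52, adjusted p = 1). The array carries 1 probe set assigned to Myc alone, so its rise rests on that measurement.

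Mycn showed a smaller difference, which depended on the probe set read. Its main probe set gave 9.02, 9.03 and 9.46 in the wild type hemisphere and 9.67, 9.58 and 9.51 in the SmoM2 hemisphere. In the vermis it gave 9.10, 9.13 and 9.51 in wild type and 9.61, 9.67 and 9.67 in SmoM2. Within each region the SmoM2 arrays lay above the wild type arrays, as in 13.4% of all genes in the hemisphere and 17.3% in the vermis, but the third wild type replicate of both regions stood close to the SmoM2 range, and over both regions the genotypes overlapped. Wild type means were 9.17 ± 0.25 (hemisphere) and 9.25 ± 0.23 (vermis), and SmoM2 means were 9.58 ± 0.08 (hemisphere) and 9.65 ± 0.04 (vermis; SD, n = 3).

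Averaged over both regions Mycn rose by 0.41 ± 0.10 (SE) log2, or 1.33-fold (95% interval 0.20 to 0.62, adjusted p = 0.00541, pool-blocked adjusted p = 0.0117). Within a single region the difference was also 0.41 but did not pass, with an adjusted p of 0.0556 in the hemisphere and 0.055 in the vermis. Of 28 alternative fits, 9 called Mycn in the hemisphere and 11 did so in the vermis, while the other 19 and 17 did not. Over these fits the difference ranged from 0.08 to 0.56 in the hemisphere (adjusted p from 0.00262 to 0.629) and from 0.20 to 0.54 in the vermis (adjusted p from 0.00336 to 0.204). With the pool block the adjusted p values were 0.0412 and 0.041, and with the number of the replicate as a fixed block 0.0389 and 0.0383. That fixed block joins wild type and SmoM2 pools of the same number, although these are different mice. Without wild type pool 3 the differences were 0.56 and 0.54, with adjusted p of 0.00262 and 0.00336. Leaving out the hemisphere array of that pool alone gave 0.0106 (hemisphere) and 0.0236 (vermis), and leaving out its vermis array gave 0.0374 and 0.023. Leaving out replicate 1 of the wild type hemisphere gave 0.0435 in the vermis. The SmoM2 difference of Mycn did not differ detectably between regions (0.01, 95% interval -0.41 to 0.42).

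The 3 Mycn probe sets did not give the same picture. The second, at a level near 7, read 6.88, 7.05 and 7.33 in wild type hemisphere, 6.89, 6.75 and 6.93 in wild type vermis, 7.23, 7.29 and 7.23 in SmoM2 hemisphere and 7.26, 7.20 and 7.25 in SmoM2 vermis. It was higher in SmoM2 by 0.27 ± 0.08 on average (adjusted p = 0.0249 over all 45037 probe sets, of which 13.6% were called higher). The third, the dimmest, read 5.43, 5.86 and 5.89 and then 5.55, 5.61 and 5.57 in wild type, and 5.54, 5.37 and 5.30 and then 5.48, 5.25 and 5.45 in SmoM2, in the same order of regions. Its averaged difference was -0.25 ± 0.09, with an adjusted p of 0.0502. With the mean of the 3 probe sets in place of the brightest, the averaged Mycn difference was 0.14 (adjusted p = 0.154) and the call was lost.

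Mycl, the family member named for lung cancer, was not called in either region or in the average. It read 9.22, 9.34 and 9.21 in wild type hemisphere, 9.02, 9.42 and 9.39 in wild type vermis, 9.36, 9.42 and 9.51 in SmoM2 hemisphere and 9.21, 9.46 and 9.42 in SmoM2 vermis. The SmoM2 arrays were above the wild type arrays in the hemisphere, a separation upward that 13.4% of all genes showed there, and overlapped them in the vermis. Its averaged difference of 0.13 did not pass (95% interval -0.05 to 0.31, adjusted p = 0.231). The other Mycl probe sets differed by 0.14 and 0.19 on average and did not pass either.

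**Figure D2:**
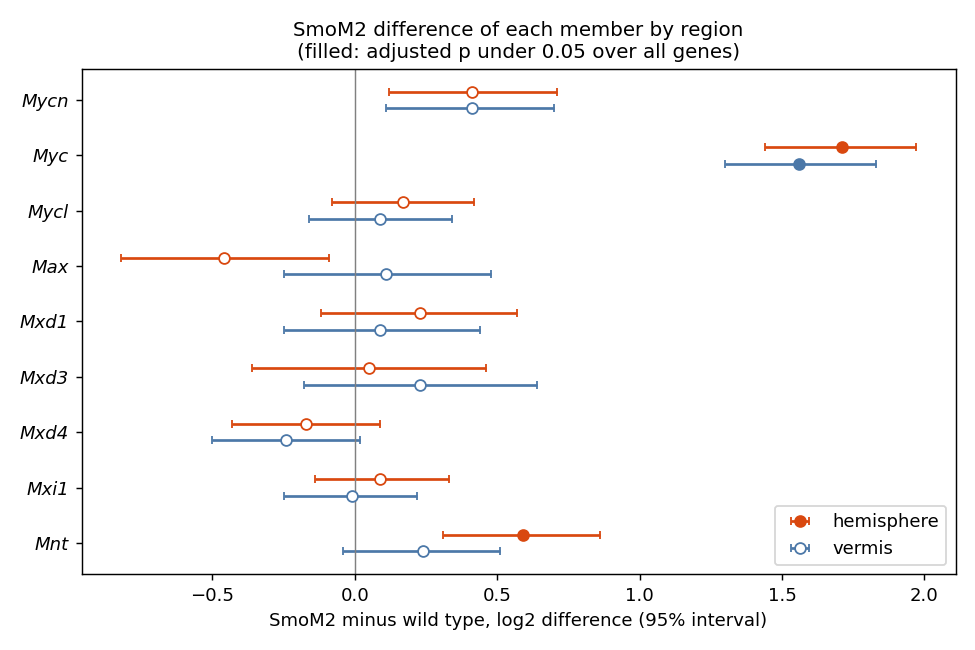
SmoM2 minus wild type on the log2 scale for each network gene in the hemisphere (orange) and the vermis (blue), with 95% intervals from limma; filled points passed an adjusted p of 0.05 over all genes. Myc passes in both regions at 1.71 and 1.56 and Mnt in the hemisphere at 0.59, while the Mycn points sit at 0.41 in each region and are open.

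Max, the shared DNA-binding partner of the Myc and Mxd proteins, was not called in either direction. Its only probe set read 7.85, 7.85 and 7.93 in the wild type hemisphere, 7.43, 7.74 and 7.01 in the wild type vermis, 7.34, 7.17 and 7.75 in the SmoM2 hemisphere and 7.53, 7.38 and 7.59 in the SmoM2 vermis. The wild type hemisphere stood above the other groups, and the other groups overlapped. That group also had the lowest dap control readings, and their part in this was not tested. The SmoM2 difference of Max was -0.46 ± 0.17 in the hemisphere (95% interval -0.82 to -0.09, adjusted p = 0.0858), where 18.4% of all genes had SmoM2 arrays wholly below wild type, and 0.11 in the vermis (95% interval -0.25 to 0.48, adjusted p = 0.671). The hemisphere difference passed after a further quantile normalization (-0.57, adjusted p = 0.0491), without replicate 3 of the wild type vermis (-0.46, adjusted p = 0.0472) and without replicate 3 of the SmoM2 hemisphere (-0.62, adjusted p = 0.038). The averaged difference was -0.17 (95% interval -0.43 to 0.09, adjusted p = 0.273).

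Among the antagonists Mnt, the broadly expressed Max partner that represses Myc target genes, was the member that rose. It read 7.98, 7.64 and 7.94 in wild type hemisphere and 8.51, 8.34 and 8.47 in SmoM2 hemisphere. In the vermis it read 8.14, 7.72 and 8.08 in wild type and 8.18, 8.16 and 8.31 in SmoM2. All 6 SmoM2 arrays were above all 6 wild type arrays, as in 8.11% of all genes, although in the vermis the gap between the nearest arrays was small. Wild type means were 7.85 ± 0.19 (hemisphere) and 7.98 ± 0.23 (vermis), and SmoM2 means were 8.44 ± 0.09 (hemisphere) and 8.22 ± 0.08 (vermis; SD, n = 3). Mnt rose by 0.59 ± 0.13 in the hemisphere, or 1.5-fold (adjusted p = 0.00695). Without SmoM2 pool 1 the difference was 0.55 and missed the threshold (adjusted p = 0.0529). In the vermis it differed by 0.24 (95% interval -0.04 to 0.51, adjusted p = 0.209), and averaged over both regions it rose by 0.41 ± 0.09 (95% interval 0.22 to 0.61, adjusted p = 0.00349, pool-blocked adjusted p = 0.00814). The rise was called only with the bright probe set: the second Mnt probe set, at levels between 4.0 and 4.67, differed by -0.36 in the hemisphere and by -0.18 on average without passing (adjusted p = 0.0911 and 0.151). With the mean of both probe sets Mnt differed by 0.11 in the hemisphere (adjusted p = 0.468) and by 0.12 on average (adjusted p = 0.215), which ended both calls.

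The Mxd genes and Mxi1, whose proteins are associated with exit from the cell cycle and differentiation, were not called in either direction. Mxd4 read 7.87, 7.80 and 8.16 in wild type hemisphere, 7.89, 7.91 and 8.15 in wild type vermis, 7.63, 7.77 and 7.93 in SmoM2 hemisphere and 7.69, 7.74 and 7.80 in SmoM2 vermis. In the vermis its SmoM2 arrays all lay below wild type, as in 22.5% of all genes. Its averaged difference of -0.20 (95% interval -0.39 to -0.02) had an adjusted p of 0.0785 and a pool-blocked adjusted p of 0.13. The difference passed with a further quantile normalization (-0.31, adjusted p = 0.0225). It also passed with the number of the replicate as a fixed block, which joins different mice across genotypes (adjusted p = 0.0314).

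Mxd1 ranged from 7.04 to 7.62 in wild type and from 7.08 to 7.69 in SmoM2, with an averaged difference of 0.16 (95% interval -0.08 to 0.40, adjusted p = 0.28). The other Mxd1 probe sets, both dimmer, differed by 0.22 and -0.12 on average and were not called (adjusted p = 0.0574 and 0.385, limma over all probe sets). Mxd3, the Mxd gene that is expressed in dividing rather than resting cells, read 8.13, 7.35 and 8.20 in wild type hemisphere, 7.72, 7.58 and 7.95 in wild type vermis, 7.90, 8.13 and 7.82 in SmoM2 hemisphere and 8.08, 8.08 and 7.78 in SmoM2 vermis. Replicate 2 of the wild type hemisphere was its lowest array, and without it the sign of the hemisphere difference turned from 0.05 to -0.22. The averaged Mxd3 difference was 0.14 (95% interval -0.15 to 0.43, adjusted p = 0.425). The other Mxd3 probe sets differed by 0.08 and 0.23 on average and were not called (adjusted p = 0.581 and 0.101, limma over all probe sets). Mxi1 ranged from 9.23 to 9.66 in wild type and from 9.41 to 9.64 in SmoM2 and had the narrowest interval around 0, with an averaged difference of 0.04 (95% interval -0.13 to 0.21, adjusted p = 0.699).

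**Figure D3:**
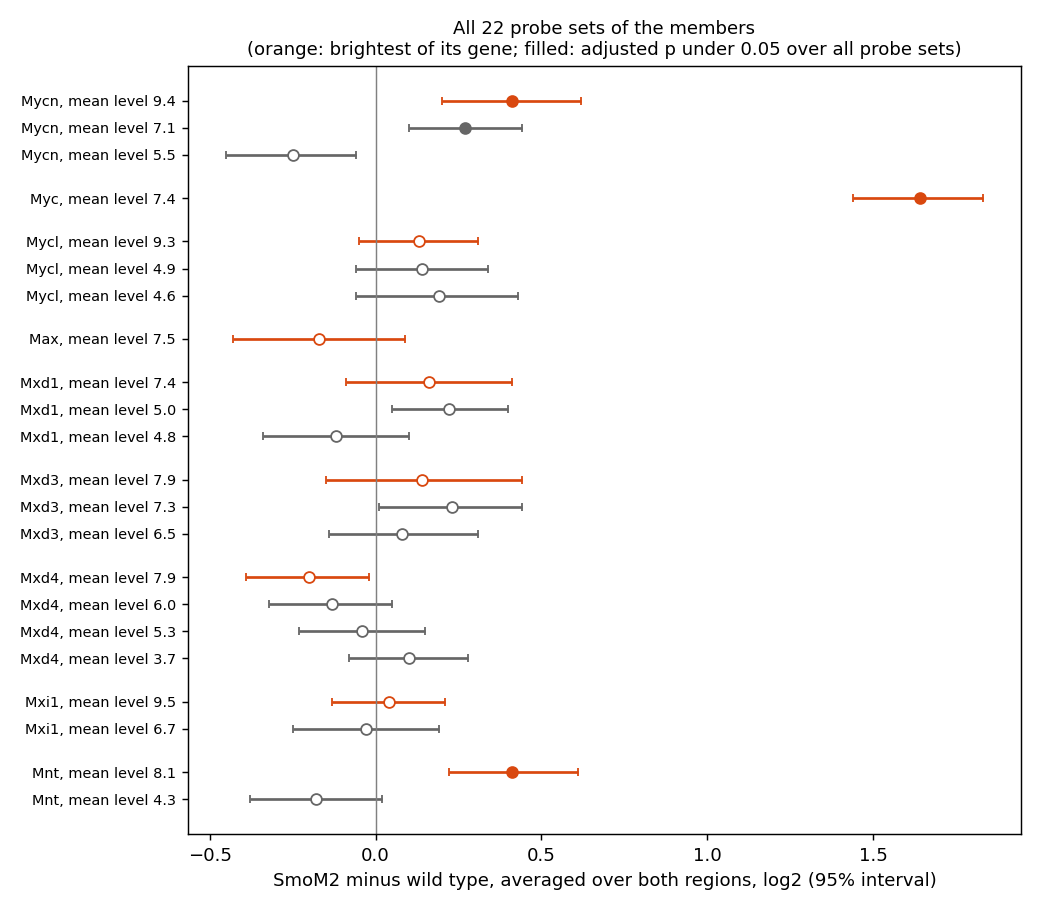
Averaged SmoM2 minus wild type difference on the log2 scale with 95% intervals for all 22 probe sets of the network genes, each labelled with its mean log2 level; orange marks the brightest probe set of a gene and filled points passed over all 45037 probe sets. Of the 22, 4 pass: the brightest of Mycn, Myc and Mnt and the second Mycn probe set, while the dimmest Mycn and Mnt probe sets lie at -0.25 and -0.18.

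No member was called between hemisphere and vermis in wild type, where 34 genes in all (0.187%) were, or in SmoM2, where 11 genes (0.0605%) were. No gene of the 18193 passed for a difference of the SmoM2 effect between regions. An unadjusted p under 0.05 in limma was seen in 564 genes, a smaller share than the 0.05 that evenly spread p values would give. Max had the largest regional difference of the members, being higher in the hemisphere than in the vermis of wild type cells by 0.48 (95% interval 0.12 to 0.85, unadjusted p = 0.0131, adjusted p = 0.529). Within wild type pools 1, 2 and 3 the hemisphere exceeded the vermis by 0.42, 0.11 and 0.92, so that the regions did not overlap (4.07% of all genes were separated this way), and in the SmoM2 pools the differences were -0.20, -0.21 and 0.15. Its SmoM2 effect was lower in the hemisphere than in the vermis by 0.57 (the difference was -0.57, 95% interval -1.09 to -0.05, unadjusted p = 0.0333, adjusted p = 1). For Mnt the hemisphere minus vermis differences within pools were -0.16, -0.08 and -0.14 in wild type and 0.33, 0.18 and 0.16 in SmoM2, opposite signs that 3.74% of all genes showed. The SmoM2 hemisphere arrays of Mnt lay above the SmoM2 vermis arrays, as in 5.64% of all genes. Its SmoM2 effect was larger in the hemisphere than in the vermis by 0.35, which did not pass (95% interval -0.04 to 0.74, adjusted p = 1). For Mycn, Myc and Mycl the regional differences lay between -0.19 and 0.06 in both genotypes.

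The genes that work beside the network were read from lists of known partners, regulators and targets. The Mlx arm and Mga, which share Max or its relative Mlx as a partner, were not called: Mga, Mlx, Mlxip and Mlxipl differed by 0.02, -0.01, 0.18 and -0.21 on average, with adjusted p of 0.867, 0.925, 0.125 and 0.104. Of 18 measured cofactors of Myc and corepressors of the Mxd proteins, 9 rose on average and none fell (15.4% of all genes rose and 20.1% fell), with a median difference of 0.25 against -0.06 for all genes. The pool-blocked count was also 9 (11.5% of all genes rose), and without SmoM2 pool 1 it was 4. Hemisphere alone gave 4 that rose (7.62% of all genes) and vermis alone gave 3 (7.56%), and over the alternative fits those counts ranged from 0 to 7 and from 0 to 6, both 0 without SmoM2 pool 1. Kat2a, a histone acetyltransferase, rose by 0.43 (adjusted p = 0.00519). The chromatin remodelling subunits Ruvbl1 and Ep400 rose by 0.40 and 0.35 (adjusted p = 0.00705 and 0.00244). Sin3a, the scaffold through which Mxd proteins and Mnt repress, rose by 0.37 (adjusted p = 0.00761).

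Regulators of Myc protein stability and activity changed in 11 of 17 measured genes on average, with 10 higher and 1 lower (15.4% of all genes were higher and 20.1% lower, and 11.5% and 12.2% with the pool block); pool-blocked counts were 7 and 1, and without wild type pool 2, SmoM2 pool 1 or SmoM2 pool 3 the higher count was 6. In the hemisphere 4 were higher and 1 lower (7.62% and 7.18% of all genes), and in the vermis 5 and 1 (7.56% and 9.46%), where the higher counts ranged from 2 to 8 and from 2 to 7 over the alternative fits. Skp2, a ubiquitin ligase subunit that targets Myc and cell cycle inhibitors, rose by 0.63 (adjusted p = 5.33e-05) and lay between 8.36 and 8.81 in wild type and between 9.12 and 9.40 in SmoM2. Huwe1, a ubiquitin ligase for Myc proteins, rose by 0.57 (adjusted p = 5.3e-05). Plk1, a mitotic kinase, and Cip2a, which restrains the phosphatase PP2A, rose by 0.60 and 0.52 (adjusted p = 0.00332 and 0.00569). Bin1, a Myc-interacting adaptor protein with other roles at membranes, was the gene that fell, by 0.47 on the log2 scale (adjusted p = 0.000274). Fbxw7, the ubiquitin ligase subunit that recognises phosphorylated Myc and Mycn, differed by -0.01 and was not called (adjusted p = 0.921).

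Of 40 genes known to be induced by Myc proteins, 28 rose and 2 fell on average (15.4% of all genes rose and 20.1% fell), with a median difference of 0.37 against -0.06 for all genes; with the pool block 25 rose and 1 fell (11.5% and 12.2% of all genes). Within the hemisphere 14 rose and 1 fell (7.62% and 7.18% of all genes), and within the vermis 23 rose and none fell (7.56% and 9.46% of all genes), but the count that rose in the vermis moved between 9 and 26 and that in the hemisphere between 6 and 21 over the alternative fits, with the lowest values without SmoM2 pool 2 and SmoM2 pool 1. Cad, which starts pyrimidine synthesis, rose by 0.69 (adjusted p = 0.000142), from 7.30 to 7.79 over the 6 wild type arrays to 8.14 to 8.47 over the 6 SmoM2 arrays. Shmt2, the mitochondrial serine hydroxymethyltransferase, rose by 0.65 (adjusted p = 0.000129), and Srm, spermidine synthase, by 0.59 (adjusted p = 0.000337). Nolc1, a nucleolar phosphoprotein, rose by 0.64 (adjusted p = 8.93e-05). The genes of this list that fell were Odc1, ornithine decarboxylase and a classical Myc target, by 0.22 on the log2 scale (adjusted p = 0.0446), and Id2, an inhibitor of differentiation factors, by 0.35 (adjusted p = 0.0214). At most 1 of these 2 falls was kept with the pool block, and over the alternative fits 0 to 2 genes of the list fell on average. Cdk4, another often-cited target, differed by 0.13 and was not called (adjusted p = 0.14).

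Of 12 genes known to be repressed by Myc proteins, 2 rose and 3 fell on average, shares near those of all genes (15.4% rose and 20.1% fell), and the median difference of -0.06 equalled that of all genes. Gadd45a, a stress response gene, and Ndrg2 rose by 0.49 and 0.55 (adjusted p = 0.000742 and 0.00154). Clu, a secreted chaperone also made by astrocytes, and Ccng2, an atypical cyclin, fell by 0.89 and 0.35 on the log2 scale (adjusted p = 0.000764 and 0.0147). The cell cycle inhibitor Cdkn1b fell by 0.29 (adjusted p = 0.00788), and Cdkn1a differed by 0.03 without a call (adjusted p = 0.84). Some of these genes are also targets of other factors active in dividing cells, so the lists are not specific to Myc proteins.

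**Figure D4:**
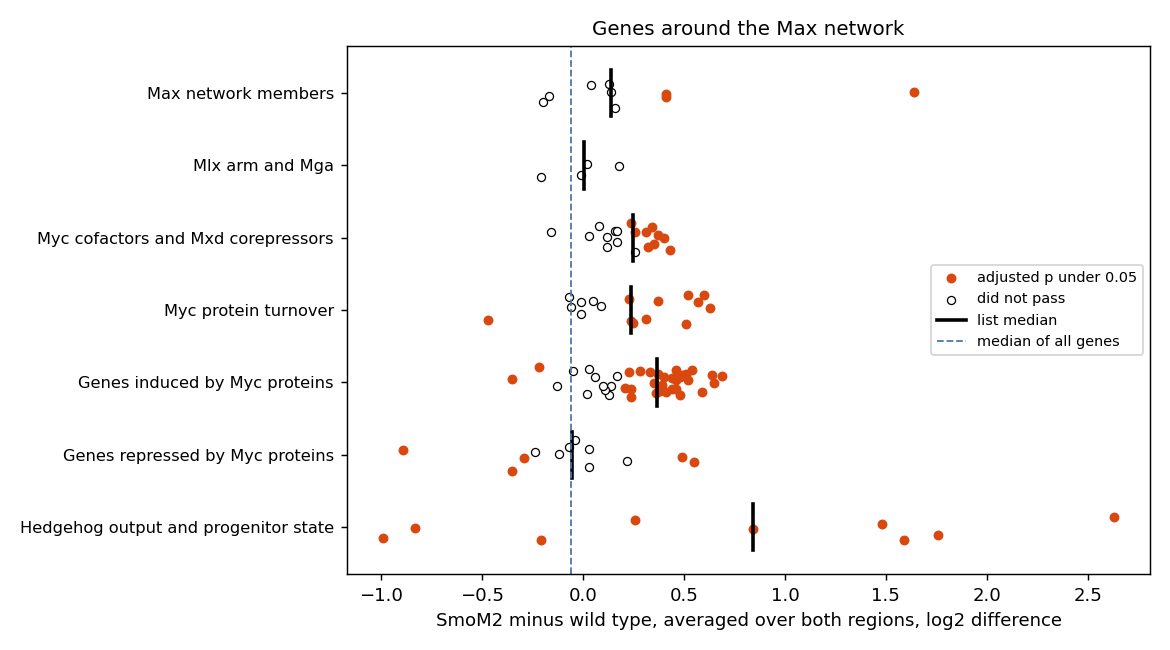
Averaged SmoM2 minus wild type difference on the log2 scale for each gene of the network and of 6 lists around it; filled points passed an adjusted p of 0.05 over all genes, black bars are list medians, and the dashed line is the median of all genes at -0.06. Genes induced by Myc proteins lie mostly to the right with a median of 0.37, repressed genes have a median of -0.06, and the points of the hedgehog and progenitor list reach 2.63.

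Hedgehog output, known from earlier results of these data, moved in the same samples. Hhip, Ptch1 and Gli1, direct transcriptional targets of the pathway, rose by 2.63, 1.76 and 1.59, and Ccnd1, cyclin D1, rose by 1.48 (adjusted p = 2.88e-08, 5.94e-10, 5e-08 and 1.25e-07, limma). Of the 9 genes of the hedgehog and progenitor list 6 rose and 3 fell on average (15.4% and 20.1% of all genes). With the pool block 6 rose and 2 fell (11.5% and 12.2% of all genes). The genes that fell were Ccnd2, cyclin D2, by 0.21 on the log2 scale (adjusted p = 0.0269, limma), and Neurod1 and Cntn2, by 0.83 and 0.99 (adjusted p = 3.58e-07 and 9.09e-06). The averaged differences were 1.64 for Myc and 0.41 for Mycn, and values of different probe sets are not compared here as amounts of RNA. Over the 12 arrays, the genes whose level followed Myc most closely, among 9096 genes brighter than the median gene, were Frmd4b, Serinc5, Sowaha, Ptch1 and Nalcn (Pearson r = 0.992, 0.989, 0.989, 0.987 and 0.985). Those of Mycn were Dtx1, Lasp1, Slc7a5, Eef2 and Wnk2 (r = 0.974, 0.965, 0.958, 0.956 and 0.952), and of these Eef2 was not called for the averaged SmoM2 difference (0.12, adjusted p = 0.17). Those of Mnt were Mapk1ip1l, Glis2, Bach2, Patz1 and Tmem132e (r = 0.981, 0.965, 0.961, 0.950 and 0.950). The arrays fall into 2 genotypes, so these values include any shared SmoM2 difference and are a description only. Between members, Myc correlated with Mycn at 0.79, with Mnt at 0.74 and with Mxd4 at -0.68 over the same arrays.

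The E-box was looked for in the induced genes as in the members. Of the 35 induced genes with a searched promoter 8 held the E-box within the 300 bases (22.9%), against 10.2% of 14452 tested genes with a searched promoter. Among those 8, 4 rose, namely Ldha, Pes1, Hspd1 and Mybbp1a at 0.24, 0.23, 0.48 and 0.54, and the median difference was 0.18. Cdk4, with 4 E-boxes, Eif4e, Eif4a1 and Nme1 differed by 0.13, 0.06, 0.03 and -0.05 and were not called. Of the 27 induced genes without an E-box in the window 19 rose, with a median of 0.37. Over all tested genes with a searched promoter the E-box share was 12.3% in those that rose on average, 9.19% in those that fell and 10% in the rest. The mean GC content of these promoters was 62%, 57.9% and 58%.

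Markers of other cells moved with genotype, and their part in the results for the network was not tested. The counts below are for the average over both regions, in which 15.4% of all genes were higher and 20.1% lower. None of the 5 granule cell progenitor markers was below the lower quartile of the arrays, and of these Atoh1 and Mki67 rose by 0.84 and 0.26 while Barhl1, Pax6 and Zic1 fell by 0.88, 0.56 and 0.19 on the log2 scale. The log2 of the summed linear levels of these 5 ranged from 13.68 to 13.84 in wild type and from 13.58 to 13.70 in SmoM2. Such sums are weighted towards bright genes: here Zic1 had group means of 12.75 to 12.99, against 7.85 to 8.98 for Atoh1. Granule neuron markers, 3 of 6 of them lower in SmoM2, summed to between 13.59 and 13.85 in wild type and between 13.02 and 13.11 in SmoM2, with Gabra6 below the lower quartile. Oligodendrocyte markers, 6 of 6 lower, went from 12.88 to 13.72 down to 11.35 to 12.12. Microglial markers, 6 of 6 lower, went from 9.77 to 10.01 down to 8.48 to 9.33. Astroglial markers (3 of 6 lower, 1 higher) ranged from 12.21 to 12.68 and from 11.66 to 12.28, and those of GABAergic interneurons (3 of 3 lower) from 7.71 to 8.48 and from 6.41 to 7.54. Purkinje cell markers were lower in 4 of 5, at 8.20 to 8.99 and 8.01 to 8.29, with Car8 below the lower quartile. Endothelial and pericyte markers were lower in 2 of 7 (28.6%, against 20.1% of all genes), at 10.17 to 11.10 and 9.68 to 10.60. By region, 0 of these 7 were lower in the hemisphere (7.18% of all genes, list median 0.01). In the vermis 4 of the 7 were lower (9.46% of all genes, list median -0.71). For unipolar brush cells Eomes was lower and Lmx1a was below the lower quartile, with sums of 7.44 to 8.50 and 5.63 to 6.56. Of the oligodendrocyte precursor markers Olig1 and Olig2 rose and Pdgfra fell, with sums of 10.18 to 10.30 in wild type and 10.53 to 10.82 in SmoM2.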

How the data were processed

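Total RNA of 12 pooled granule cell progenitor samples was hybridised to Affymetrix mouse genome expression arrays, and the deposited values are log2 expression per probe set that the authors made with Partek and RMA, per the submitters' processing notes. RMA subtracts background, quantile-normalizes and summarises probes, gives no detection call and compresses differences near background. Tool versions and further filters are not stated in the labels. The table held 45101 probe sets, of which 64 were controls and were left out, and all 12 value columns were used. By the platform annotation 34958 probe sets had 1 symbol, 932 several and 9211 none, and 0 symbols needed updating. The values were not normalized again.

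For 18193 genes the brightest probe set was fitted with limma 3.58.1 in R 4.3.3 (lmFit, eBayes) in 1 model of 4 group means, with two-sided tests and Benjamini-Hochberg adjustment over all genes of a contrast; probe sets of the members were also fitted over all 45037. The fit was tested on simulated data with independent arrays, so that test does not cover arrays that share a pool. The members, lists and the averaged contrast were chosen with earlier results of these data known. Named genes were all members, up to 4 called genes of each list by largest averaged difference, lists of 4 or fewer whole, and for Mycn, Myc and Mnt the 5 genes with the highest correlation; Fbxw7, Cdk4, Cdkn1a, the genes that fell, the E-box genes and the markers were named after their values were seen. Replicate numbers were taken to pair regions within a genotype, which the labels do not state. Deviations from the group mean correlated between hemisphere and vermis arrays of the same number (0.53, 0.34 and 0.51 in wild type, 0.14, 0.27 and 0.17 in SmoM2). Between genotypes, where the mice differ, such correlations ranged from -0.34 to 0.28, so the SmoM2 values do not set its pairs apart. The added fit took the pool as a random block (correlation 0.359). Samples of a group are separate pools per the labels. Precision is limited by 3 arrays per group. Alternatives were other scalings, the mean of probe sets, a filter on dim genes, other moderation and weights, replicate blocks and leaving out arrays or pools.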

Additional observations from a re-analysis of the deposited data

Results flagged for a closer look

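Mnt was flagged because its regional differences ran in opposite directions in the genotypes: hemisphere minus vermis was -0.16, -0.08 and -0.14 in wild type pools 1, 2 and 3 and 0.33, 0.18 and 0.16 in the SmoM2 pools. The difference between both SmoM2 effects was 0.35 ± 0.18 (SE) on the log2 scale, with an unadjusted p of 0.0734 and an adjusted p of 1 in limma. With the pool as a fixed block its unadjusted p was 0.0112 and its adjusted p 0.637, and in the fit that took the pool as random they were 0.0217 and 0.624. Such opposite signs in all pools were seen in 680 of 18193 genes (3.74%). With the mean of both Mnt probe sets the value was 0.00.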

How the results depend on the processing

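Of 831 alternative values for the members, 777 kept their direction and side of the threshold, 4 lost a call, 25 gained one and 25 changed sign; Myc kept its call in every alternative of both regions and the average. The report gives the values that changed a call of Mnt, Max and Mxd4 and part of those for Mycn. Mycn also passed in hemisphere and vermis after centring arrays on their median (adjusted p = 0.046 and 0.0404, limma), with only brighter genes (0.0387 and 0.0429), with trended and robust moderation (0.0276 and 0.029) and with array weights (0.031 and 0.0183), and in the vermis with only the groups compared (0.0436). Signs that changed belonged to differences that had not been called: with a further quantile normalization Mxd3 in the hemisphere was -0.06 and Mxd1 in the vermis -0.01, and Mxi1 in the vermis was 0.02 after centring arrays on their median and 0.01 with the mean of probe sets. With an array or a pool left out, Mxd3 ranged from -0.22 to 0.21 in the hemisphere and from -0.04 to 0.27 on average, Mxi1 from -0.08 to 0.06 in the vermis and from -0.03 to 0.10 on average, and, in the vermis, Mycl from -0.04 to 0.17, Max from -0.08 to 0.28 and Mxd1 from -0.02 to 0.21; the Mnt interaction with the mean of probe sets was 0.00. The cause was not tested. Counts of called genes moved from 2694 in the hemisphere to 1753 with only the groups compared and 4840 over all probe sets, from 3096 in the vermis to 5032 over all probe sets, and from 6451 on average to 3937 with only brighter genes and 12682 over all probe sets. In that brighter set 62.3% of averaged calls were higher, against 43.4%. Regional counts moved from 34 in wild type to 21 with brighter genes, 15 with array weights, 198 with the random pool block and 3 with only the groups compared, and from 11 in SmoM2 to 6, 42 and 39 with the first 3 of these. Leaving out 1 array gave 1633 to 4277, 1756 to 3828, 5047 to 7727, 8 to 58, 2 to 18 and 0 to 1 for the hemisphere, vermis, average, wild type region, SmoM2 region and interaction, and leaving out 1 pool gave 1354 to 4559, 1565 to 4362, 4005 to 8024, 3 to 20, 2 to 17 and 0 to 0. The replicate block with the number as a fixed term, which joins pools across genotypes by number, called 3254, 3745, 7041, 39 and 12 genes. Of the members' calls it changed those of Mycn and Mxd4. RMA values carry no detection call, so the dim Mycn and Mnt probe sets have no known distance from background.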
